A study of Homo sapiens with 8 samples.

Results

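The NDRG (N-myc downstream regulated gene) family has 4 members in human cells, NDRG1, NDRG2, NDRG3 and NDRG4, and all 4 were taken by gene symbol from a transcript table of SQ20B cells. They accounted for 9 of the 24812 listed transcripts and for 4 of the 14528 named genes. SQ20B is an established line of human head and neck squamous cell carcinoma cells. Poly(A)+ RNA was sequenced from 4 normoxia samples and from 4 hypoxia samples, the latter kept at 0.5% O2 for 16 h, and all 8 came from this single line in the same high-glucose medium with serum. The question was which transcripts differ in level between normoxic and hypoxic cells. The table held 1 FPKM value, a fragment count scaled to transcript length and to the number of mapped reads, for each condition, formed over its 4 samples. The spread between samples, their depths and their counts were therefore not analysed here, and no value below has an error, an interval or a test.

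NDRG proteins share an alpha/beta hydrolase fold for which no enzymatic activity is established. NDRG1 is a cytoplasmic protein known for induction by low oxygen, iron depletion and differentiation signals, for repression by MYC and MYCN, and for phosphorylation by the kinases SGK1 and GSK3. NDRG2 and NDRG4 are best known from brain, and NDRG4 also from heart, whereas NDRG3 is known as a protein that the oxygen sensor EGLN1 and the ubiquitin ligase subunit VHL keep low while oxygen is present. The present values are RNA levels and carry no information on the proteins.

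NDRG1 RNA was much higher in hypoxia, and the other 3 members differed little between the conditions. Expressed as the FPKM summed over the listed transcripts of the gene, NDRG1 stood at 6.19 in normoxia and 300.0 in hypoxia, 48.5 times the normoxic level. With 0.1 added to both values, the scale used for all changes below, the log2 change was 5.58. In bulk RNA, more cells that express NDRG1 and more NDRG1 RNA per cell cannot be told apart. NDRG3, which carries the bulk of family RNA in normoxia, stood at 35.8 and 31.9, a log2 change of -0.16 that became 0.06 when both conditions were scaled to the same FPKM sum. NDRG2 stood at 0.547 in normoxia and 0.776 in hypoxia, giving a log2 change of 0.44. NDRG4 stood at 0.895 and 0.715, a log2 change of -0.29. Both NDRG2 and NDRG4 were thus below 1 FPKM in both conditions, where a small absolute difference makes a large ratio, and with 1 added in place of 0.1 their log2 changes were 0.20 and -0.14.

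Ranks were taken over the 12106 named genes whose mean FPKM of the conditions reached 0.5. Of these, 3.21% were at least 2-fold higher in hypoxia and 2.62% at least 2-fold lower. Of the 4 NDRG genes, 1, NDRG1, was in the first class and none was in the second. The log2 change of NDRG1 ranked 1 among the 12106 genes, ahead of the pH-regulating carbonic anhydrase CA9 at 4.77, the secreted lipase inhibitor ANGPTL4 at 4.33 and the glucose transporter SLC2A3 at 4.27. As a difference in FPKM, NDRG1 was higher by 293.8 in hypoxia, which ranked 6 among all named genes. NDRG2 ranked 1860, NDRG3 ranked 7055 and NDRG4 ranked 8403 by log2 change. These 3 genes lay within the central 90% of all genes, which ran from -0.80 to 0.83 with a median of -0.07.

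**Figure D1:**
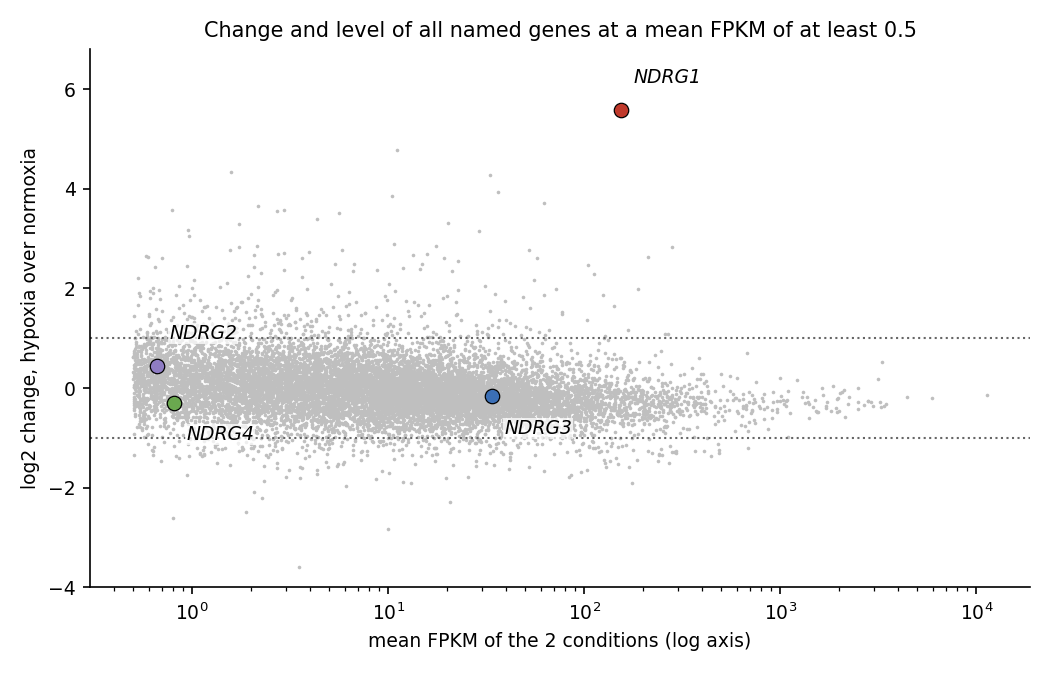
Log2 change in hypoxia over normoxia (vertical axis) against the mean FPKM of the conditions (horizontal log axis) for the 12106 named genes whose mean FPKM reached 0.5, 1 point per gene, with the NDRG genes marked and dotted lines at 2-fold higher and lower. NDRG1 lies at the top at 5.58, and NDRG2, NDRG3 and NDRG4 lie between -0.29 and 0.44, inside the cloud.

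The composition of the family differed between the conditions. The summed FPKM of all 4 genes was 43.4 in normoxia and 333 in hypoxia, a ratio of 7.68. NDRG3 held 82.4% of that sum in normoxia and 9.58% in hypoxia. NDRG1 held 14.3% in normoxia and 90.0% in hypoxia, so the leading member differed between the conditions. NDRG3 RNA was 5.78 times NDRG1 RNA in normoxia, and NDRG1 RNA was 9.40 times NDRG3 RNA in hypoxia. Without NDRG1 the family sum was 37.2 in normoxia and 33.4 in hypoxia. NDRG3 thus had a much smaller share in hypoxia at a level of its own that was 0.893 times the normoxic one.

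NDRG2 and NDRG4 together made up 3.32% of family FPKM in normoxia and 0.447% in hypoxia, with nearly the same summed level of 1.44 and 1.49 FPKM. NDRG4 was 1.64 times NDRG2 in normoxia and 0.922 times NDRG2 in hypoxia, so the order of these low members switched. Without sample values it cannot be said whether their levels differed beyond the spread in either condition. Among all 14528 named genes, NDRG1 ranked 7085 by level in normoxia and 196 in hypoxia. NDRG3 kept nearly the same place, at rank 2524 and rank 2572. NDRG4 ranked 11036 and 11632, and NDRG2 ranked 11799 and 11486.

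**Figure D2:**
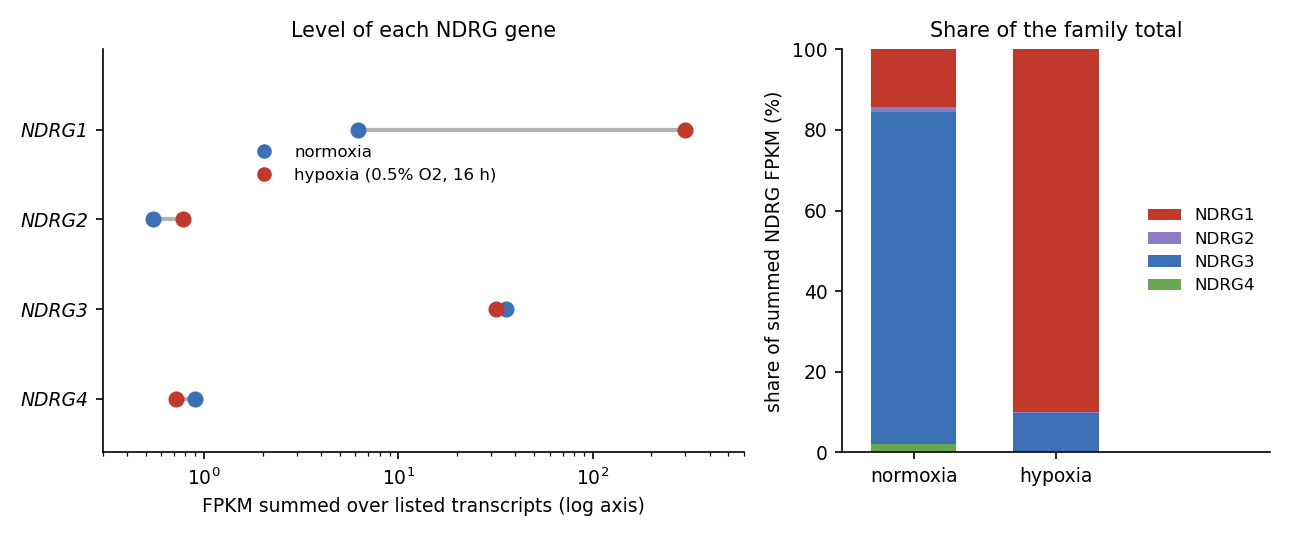
Left, FPKM summed over listed transcripts of each NDRG gene on a log axis, with 1 point for normoxia and 1 for hypoxia per gene. Right, stacked bars of each gene's percentage of the summed NDRG FPKM, in which NDRG3 fills 82.4% of the normoxia bar and NDRG1 fills 90.0% of the hypoxia bar.

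NDRG1 lies on the minus strand at chr8:134249414-134309547 (hg19), a locus of 60.1 kb. Its 3 listed transcripts are NM_006096, NM_001258432 and NM_001135242, all protein coding. NM_006096 had 4.35 FPKM in normoxia against 180 in hypoxia, giving a log2 change of 5.34. NM_001258432 was listed at 1.81 and 119, a log2 change of 5.96. NM_001135242 was listed at 0.0289 and 0.739, 25.6 times the normoxic level, which the added 0.1 brought to a log2 change of 2.70. The high level in hypoxia was thus carried by NM_006096 and NM_001258432, and the value of NM_001135242 depended on the added constant, at 0.76 with 1 added.

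Of the 9 NDRG transcripts, 5 reached a mean FPKM of 0.5, and 2 of these, NM_006096 and NM_001258432, were at least 2-fold higher in hypoxia. Over all 18190 transcripts at that limit the share was 3.70%, and no NDRG transcript was among the 3.69% that were at least 2-fold lower. NM_006096 was the leading NDRG1 transcript in both conditions, with 70.3% of NDRG1 FPKM in normoxia and 60.1% in hypoxia. NM_001258432 had 29.2% and 39.6%, and NM_001135242 had 0.467% and 0.246%. The ratio of NM_006096 to NM_001258432 was 2.40 in normoxia and 1.52 in hypoxia. Counting only these 2, the leading transcript was 10.4 points of share lower in hypoxia. A loss of at least 10 points by the leading transcript was listed for 6.61% of the 3753 genes with more than 1 transcript at the limit, so that NDRG1 just passed that size.

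The NDRG1 transcripts were placed in the GENCODE annotation of GRCh37 through the study's transcript-specific primers. The NM_001258432 primer matched 1 model, NDRG1-222, with 14 exons, 1385 exonic bases and 328 codons. The NM_006096 primer matched 7 models, among them NDRG1-201 with 16 exons, 3025 exonic bases and 394 codons. NDRG1-222 begins with the same first exon as NDRG1-201, chr8:134309377-134309495, and continues at chr8:134276790-134276895, whereas NDRG1-201 has its second exon at chr8:134296492-134296572. All 1385 bases of NDRG1-222 lie within NDRG1-201, which has 2 further exons of 117 bases in all that NDRG1-222 skips. NDRG1-201 has 1640 exonic bases outside NDRG1-222, of which 1523 are in its last exon. Against NDRG1-201, no exonic base thus belongs to NDRG1-222 alone, but its junction from the first exon to chr8:134276790-134276895 does. FPKM was computed on RefSeq transcripts, whose exons and ends were not compared with these GENCODE models. The study describes its most induced NDRG1 isoform as one from an alternative transcription start site with fewer amino acids, and measured isoforms by RT-qPCR. NM_001258432 had the largest log2 change of the NDRG1 transcripts. Its matched model NDRG1-222 has fewer codons than NDRG1-201, 328 against 394, but the same first exon. These GENCODE models thus show no difference in start, and the start used in the cells was not tested. The fragments behind the division of NDRG1 FPKM between NM_006096 and NM_001258432 were not analysed here. The NM_001135242 primer matched NDRG1-202 alone, whose longer first exon, chr8:134308980-134309829, contributes to 731 bases that NDRG1-201 lacks. NDRG1-202 has 394 codons like NDRG1-201.

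NDRG3 lies on the minus strand at chr20:35280169-35374541. Its coding transcript NM_032013 held 96.1% of NDRG3 FPKM in both conditions, at 34.4 FPKM in normoxia and 30.7 in hypoxia. The coding transcript NM_022477 was listed at 0.861 and 0.974, a log2 change of 0.16. The noncoding NR_038370 was listed at 0.531 and 0.264, a log2 change of -0.79, and lay below the mean limit. The level of NDRG3 thus followed 1 transcript, and its minor transcripts stayed under 1 FPKM.

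NDRG2 lies on the minus strand of chromosome 14 and had 2 listed transcripts. NM_001282211 had 0.414 FPKM in normoxia against 0.579 in hypoxia, 75.7% and 74.7% of NDRG2 FPKM. NM_201539 was listed at 0.133 and 0.196. Neither reached the mean limit of 0.5 alone, and the gene passed it through their sum. NDRG4, on the plus strand at chr16:58497549-58547523, had the single listed transcript NM_001242836, so its gene and transcript values are the same.

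**Figure D3:**
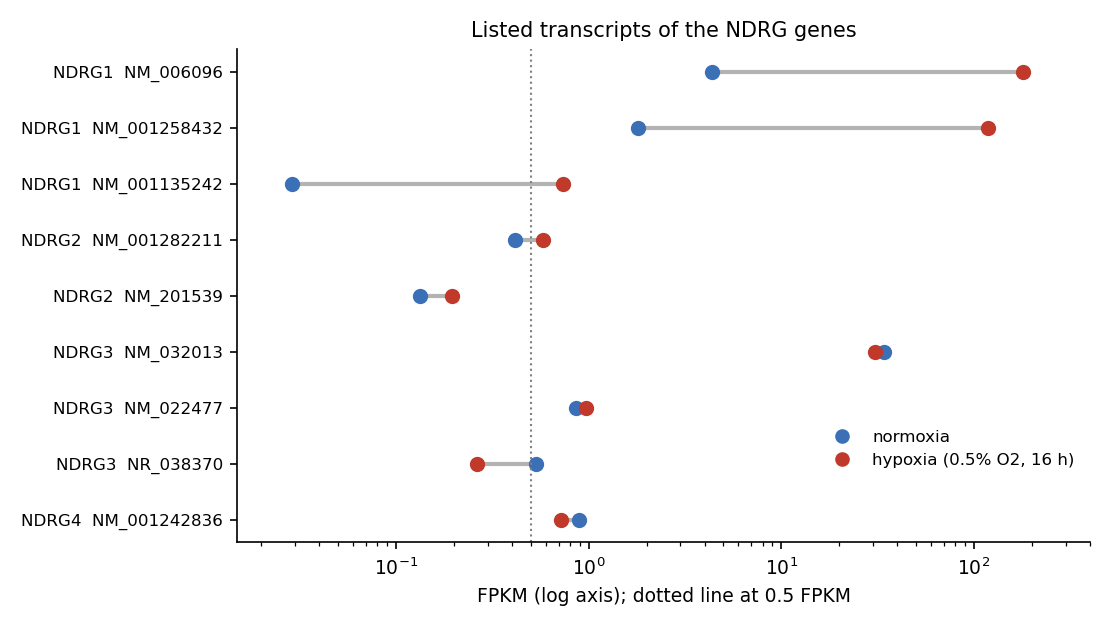
FPKM of each of the 9 listed NDRG transcripts on a log axis, with 1 point for normoxia and 1 for hypoxia per transcript and a dotted line at 0.5 FPKM. The NDRG1 transcripts have their points far apart, while the points of NM_032013 of NDRG3 lie at 34.4 and 30.7.

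The loci around the members were compared in the same way, with all genes that had listed transcripts within 250 kb of the gene body. Of the 4 neighbours of NDRG1, 3 were at least 2-fold higher in hypoxia, beside 3.70% of all 14528 named genes without an FPKM limit. All 4 had low levels, with mean FPKM between 0.301 and 0.759, and with 1 added in place of 0.1, an alternative added after the data were seen, none of the 4 was 2-fold higher. CCN4, a matricellular protein gene on the plus strand, ends 5.49 kb from the 3′ end of NDRG1 and was listed at 0.00642 in normoxia and 0.596 in hypoxia, giving a log2 change of 2.71, or 0.67 with 1 added. ST3GAL1, a sialyltransferase gene 153 kb away on the 5′ side of NDRG1, was listed at 0.488 and 1.03, a log2 change of 0.94. TG and SLA, which overlap each other, complete the 4 and are named after their values were seen. TG was listed at 0.134 and 1.15, or 0.93 on the log2 scale with 1 added, and SLA at 0.275 and 0.929, or 0.60. Within 1000 kb, a distance added after the data were seen, 3 of 7 genes were at least 2-fold higher, and the 3 added genes had log2 changes of 0.54, -0.28 and -0.04.

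Of the 10 neighbours of NDRG2, 3 were at least 2-fold higher, beside 3.70% of all named genes without an FPKM limit. The median log2 change of the 10 was -0.02, and none was 2-fold higher with 1 added. The NDRG2 gene body, chr14:21484922-21539031, overlaps 5 other coding genes in GENCODE, of which RNASE7 and ARHGEF40 had listed transcripts. RNASE7, an antimicrobial ribonuclease gene of epithelia on the plus strand, was listed at 0.411 in normoxia and 1.07 in hypoxia. ARHGEF40, a guanine nucleotide exchange factor gene also on the plus strand, was listed at 0.619 and 0.996. The zinc transporter gene SLC39A2, 14.9 kb away, was listed at 0.438 and 1.08. On the other side, ZNF219, 19.2 kb away, was listed at 0.462 and 0.443. RNASE7 and ARHGEF40 thus had low levels, as had NDRG2 at 0.547 FPKM in normoxia and 0.776 in hypoxia. The log2 change of RNASE7 was larger, 1.19 against 0.44 for NDRG2. The other overlapping genes have no values here. The libraries were stranded and Cufflinks was run with standard parameters, but no strand setting is named in the sources used here. The part of overlapping reads in the NDRG2 value was not tested.

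None of the 10 neighbours of NDRG3 and none of the 8 neighbours of NDRG4 was at least 2-fold higher or lower. All of them reached the mean limit, at which 3.21% of all genes were higher and 2.62% lower by that size. None is therefore a usual count for so few genes. The log2 changes near NDRG3 ran from -0.54 to 0.72 with a median of -0.10. DSN1, a kinetochore gene 5.70 kb away, was listed at 48.9 and 42.6 FPKM, with a log2 change of -0.20 that turned positive under equal sums. RAB5IF, on the other side, was listed at 189 and 130. Near NDRG4 the changes ran from -0.67 to 0.53 with a median of -0.11. The methyltransferase gene SETD6, 1.85 kb away, was listed at 13.7 and 8.52, and the replication gene GINS3 at 23.0 and 14.6.

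**Figure D4:**
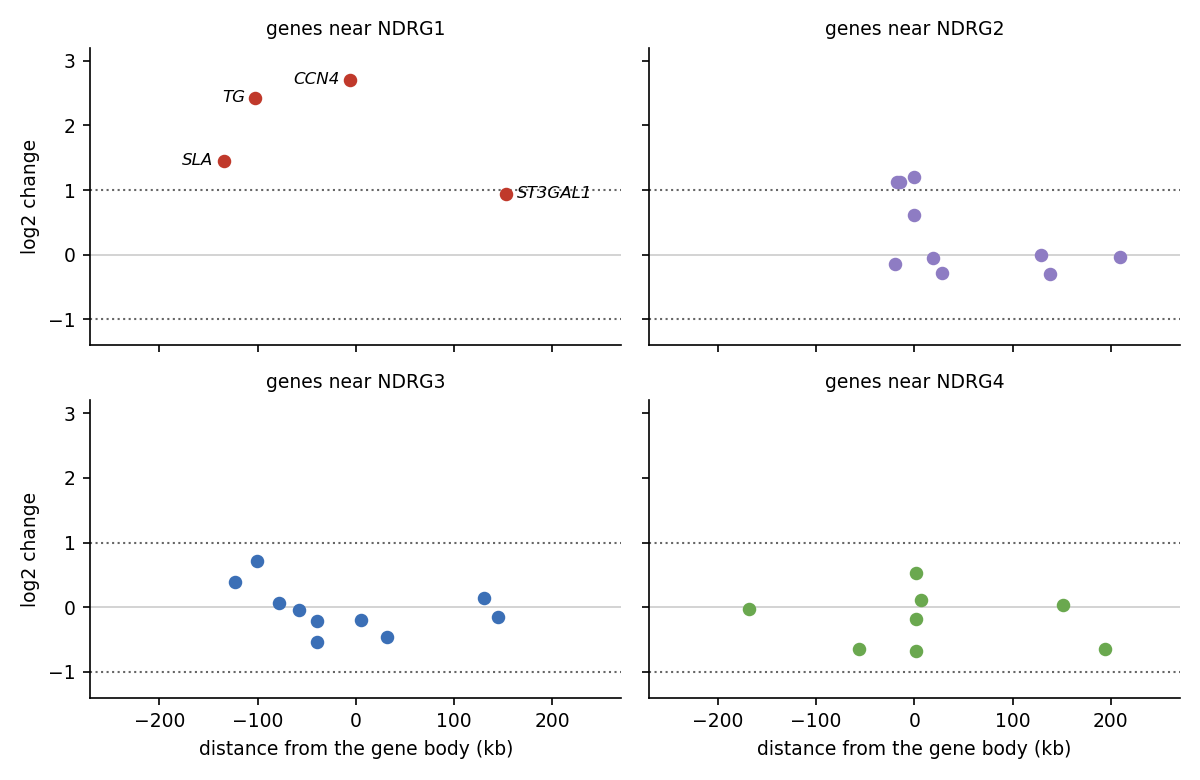
Log2 change of each listed gene near an NDRG gene (vertical axis) against its distance from the gene body in kb (horizontal axis, up to 250 kb each side), 1 panel per member and 1 point per gene. Genes without a coding entry in GENCODE were placed by their listed locus, which can span several genes. SNORA46 and SNORA50A near NDRG4, placed so at 1.85 kb, may lie farther away. All 4 genes near NDRG1 lie at 0.94 or above, at mean FPKM between 0.301 and 0.759. Those near NDRG3 and NDRG4 lie between -0.67 and 0.72.

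Lists of genes from the context of the NDRG family were counted at the same mean limit of 0.5. Some hold genes known to act on or with NDRG proteins or their genes, and others hold genes of the hypoxia response or of the same protein fold. The list of hypoxia response genes had 20 members, of which 18 were listed and 17 reached the limit. All 17 were at least 2-fold higher, beside 3.21% of all genes at the limit. Their median log2 change was 2.63, beside -0.07 over all genes. The list holds genes known to respond to hypoxia and was chosen with earlier results of these data known. The count is therefore no test. NDRG1 at 5.58 lay above the range of these 17, which ran from 1.02 to 4.77. The highest 3 were CA9, at 0.694 FPKM in normoxia and 21.6 in hypoxia, SLC2A3, at 3.18 and 63.2, and the oxygen sensor EGLN3, at 4.38 and 68.1. The carbonic anhydrase gene CA12, below the limit, was listed at 0.117 and 0.147, a log2 change of 0.19.

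EGLN3 and MXI1 each stand in a second list below. In the list for oxygen sensing and HIF (the hypoxia-inducible transcription factor), 3 of 9 genes at the limit were at least 2-fold higher. None was lower, and the median was 0.54. Over all genes at the limit, 3.21% were higher and 2.62% lower by 2-fold. EGLN3 and EGLN1 are prolyl hydroxylases that mark HIF alpha subunits for removal, and EGLN1 was listed at 13.1 in normoxia and 34.1 in hypoxia. The third gene, the HIF beta-type subunit ARNT2, was listed at 1.02 and 2.88. HIF1A, the oxygen-regulated alpha subunit and the most abundant gene of the list, was named after its values were seen and was listed at 253 and 141, a log2 change of -0.85. VHL, which binds the hydroxylated subunits, was listed at 20.6 and 19.2, a log2 change of -0.10 that turned positive under equal sums and under quantile scaling. NDRG3 RNA and VHL RNA thus both differed little between the conditions, whereas EGLN1 RNA differed by a log2 change of 1.37.

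In the MYC network list, 2 of 10 genes at the limit were at least 2-fold higher and none lower, with a median of -0.15. The shares over all genes at the limit were 3.21% higher and 2.62% lower. MXI1 and MXD1, which compete with MYC for the partner MAX, were listed at 12.0 and 50.0 FPKM and at 3.30 and 7.69. MYC, a known repressor of NDRG1, was listed at 23.8 in normoxia and 14.5 in hypoxia, giving a log2 change of -0.71. MYCN, for which the family is named, was listed at 0.0779 and 0.255, below the limit. MLXIP, a glucose-responsive partner of MLX, was listed at 0.814 and 0.435. The gene with the largest change in this list was MXI1, at 2.05.

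Neither the kinases known to phosphorylate NDRG proteins nor the partners held a gene past 2-fold in either direction. Over all genes at the limit, 3.21% were higher and 2.62% lower by that size, so none is a usual count for lists this short. SGK1, which phosphorylates NDRG1, was listed at 4.59 and 7.68 FPKM, a log2 change of 0.73. The related SGK3 was listed at 7.43 and 4.62, and AKT1 at 24.5 and 18.3. The median over the 7 kinases was -0.19. Among the 5 partners the median was -0.04. CDH1, the epithelial cadherin whose recycling involves NDRG1, was listed at 61.1 in normoxia and 82.6 in hypoxia. RAB4A, a recycling endosome protein, was listed at 15.9 and 13.6, a log2 change of -0.22 that came to 0.00407 under equal sums. The kinase BRAF was listed at 5.31 and 6.43.

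Genes for other proteins with an alpha/beta hydrolase domain (ABHD), the fold of the NDRG proteins, were counted as well. None of the 16 at the limit was at least 2-fold higher or lower, beside 3.21% and 2.62% of all genes. A count of none is thus not particular to this list. The median of the 16 was -0.09. The largest differences were those of ABHD11, at 14.8 and 7.84 FPKM, ABHD4, at 1.85 and 2.96, and ABHD12, at 25.7 and 18.3. NDRG1 at 5.58 lay outside the range of this list, from -0.90 to 0.65, and NDRG2, NDRG3 and NDRG4 lay inside it.

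**Figure D5:**
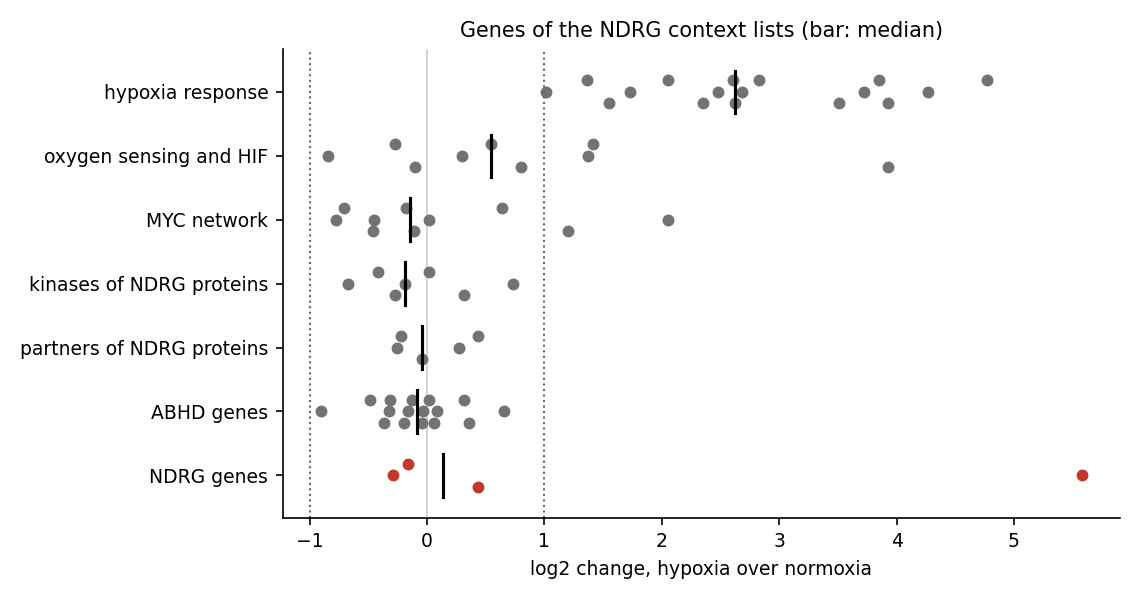
Log2 change in hypoxia over normoxia (horizontal axis) of the genes at the limit in each list, 1 row per list and 1 point per gene, with a bar at the median. The NDRG row has a single point at 5.58 and 3 points between -0.29 and 0.44, and the row of hypoxia response genes lies between 1.02 and 4.77.

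The change in family composition was set beside that of 3 families with a known hypoxia-responsive member. The share of NDRG1 in its family was 75.7 points higher in hypoxia. The share of EGLN3 among the EGLN genes was 21.1% in normoxia and 64.9% in hypoxia, 43.8 points more. The share of ALDOC among the aldolases, of which ALDOA and ALDOC were listed, was 14.7% and 56.3%, 41.6 points more. The share of PDK1 among the pyruvate dehydrogenase kinases was 38.3% and 55.5%, 17.1 points more. In all 4 families the member leading in hypoxia was not the one leading in normoxia, where PDK3 led the kinases with 56.9%, ahead of PDK1. PDK2 and PDK4 lay below the mean limit. The 3 other families were chosen for having a hypoxia-induced member, so the switch in all 4 was not a test. How often other families switch was not analysed.

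The genes nearest to each member in log2 level of the 2 conditions were named by their distance, which is a measure over 2 values only. For NDRG1 the nearest was the aldolase gene ALDOC at a distance of 1.46, with 8.66 FPKM in normoxia and 115 in hypoxia, followed by ARRDC3 at 2.03 and the lipid droplet gene HILPDA at 2.11. No named gene at the limit thus lay within 1 log2 unit of NDRG1. The other members had close matches. The nearest to NDRG3 were the autophagy gene BECN1 at 0.00645, MED7 at 0.00877 and MTIF3 at 0.0213. The nearest to NDRG2 were IGSF11 at 0.0165 and SMCO2 at 0.0291, and those to NDRG4 were DCAF15 at 0.0214, EPN1 at 0.0396 and FAM3A at 0.0419.

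Markers were checked because NDRG2 and NDRG4 are also RNAs of neural cells. Of 8 squamous and epithelial markers, 7 were listed, with a summed FPKM of 891 in normoxia and 874 in hypoxia, among them the keratin KRT5 at 398 and 442 and the squamous factor TP63 at 42.8 and 44.6. Of the 7, 4 were higher in hypoxia by the reported values and 3 lower, the latter being EPCAM at 317 and 233, the desmosomal DSG3 at 16.4 and 12.8 and the keratin KRT6A at 5.10 and 3.26. Of 4 neural and glial markers, SYP was listed at 0.218 and 0.251 and SNAP25 at 0.0892 and 0.124. None of 4 fibroblast markers was listed. CD14, the 1 immune marker of 3, was listed at 0.119 and 0.132, and CDH5, the 1 endothelial marker of 3, at 4.78 and 2.83.

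Promoter windows from 250 bases before to 50 after an annotated start were read for NDRG2 and NDRG4 from RefSeq (GRCh38.p14), since HIF binds short motifs with the core ACGTG or GCGTG. Both strands were searched, so the cores also appear as CACGT or CACGC, and matches were allowed to overlap. Windows of NDRG1 and NDRG3 were not analysed here. Of all 35116 windows of 300 bases, 48.4% held a core and 4.40% held at least 4. Of 5 NDRG2 windows 3 held 1 core each, which lay at 2 places, and of 4 NDRG4 windows 1 held 4 cores. The stretches around these matches, with 8 bases each side, are shown because they are the letters on which the counts rest, with the cores in capitals, 5′ to 3′ on the strand of the gene.
NDRG2, chr14:21025168-21025188, minus strand: aaggggggGCGTGtttactgg
NDRG2, chr14:21071015-21071035, minus strand: ggcagtgtCACGCcccctggt
NDRG4, chr16:58463544-58463564, plus strand: gcggaagcCACGCgcgaggga
NDRG4, chr16:58463628-58463656, plus strand: gccaaaccCACGCgggCACGCccccgcgg
NDRG4, chr16:58463690-58463710, plus strand: gccgcgggCACGCggaggggc
Among the windows read, which left out those of NDRG1 and NDRG3, the largest number of cores was in a window of NDRG4. Whether cores go with RNA level was not tested. A core is a match of letters, common in windows of this length, and binding at these places was not analysed here.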

How the data were processed

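Per the submitters' processing notes and the study's methods, the authors aligned reads of stranded poly(A)+ libraries to RefSeq hg19 with STAR 2.3.0.1. They ran the Cufflinks 2.1.1 suite with standard parameters. The deposited table gives the authors' FPKM, 1 value per condition over 4 samples. Its other columns hold the authors' own log2 fold changes, test statistics, p-values and q-values, and were not used. The study describes the samples as biological replicates. Samples were grouped by source label, since the treatment text is repeated for normoxia.

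RefSeq identifiers were paired with symbols through GRCh38.p14 names for 24293 of 24812 transcripts (97.9%). FPKM was summed per gene, 0.1 was added, and ranks and lists took genes whose mean FPKM reached 0.5. This gave 12106 of 14528 named genes. The FPKM columns summed to 536005 in normoxia and 458431 in hypoxia. With 1 value per condition no test was possible, and at least 2-fold was used as a description. A gene not listed is not a gene at zero, since every listed transcript reached 0.0998 FPKM or more in its higher condition. LDHA, NDUFA4L2 and KRT14 were not analysed here.

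Named were all members, the 3 nearest genes of each, the 3 largest changes of each list with genes acting directly on a member, and flanking or overlapping genes, of which 2 are not reported here. Members and lists were chosen with earlier results of these data known. Alternatives varied the pseudocount, limit, scaling, fold and transcripts summed. Python 3.11.15, numpy 2.4.6, pandas 2.3.3 and matplotlib 3.10.9 were used, and the calculations were tested on simulated data.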

Additional observations from a re-analysis of the deposited data

How the results depend on the processing

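NDRG1 ranked 1 by log2 change as reported and under all 7 alternatives of pseudocount, scaling and transcript choice, with values from 5.34 to 5.80. Equal FPKM sums shifted the gene median by 0.22 and gave 0.64 for NDRG2, 0.06 for NDRG3 and -0.09 for NDRG4. Summing only transcripts whose mean FPKM reached 0.5 left NDRG2 with a share of 0 in both conditions, since neither of its transcripts reached it. With the largest transcript only, the hypoxia share was 14.5% for NDRG3 and 0.337% for NDRG4. Genes at least 2-fold higher numbered 388 as reported, 201 with a pseudocount of 1, 706 with equal sums and 1204 at 1.5-fold. Those lower numbered 317, 189, 155 and 1361. Of the genes past 2-fold, 55.0% were higher as reported, 82.0% under equal sums and 65.1% after centring on the median. In all, 55 alternative values stayed within their limits and 11 moved, among them the neighbours of NDRG1 past 2-fold, 3 as reported and 0 with a pseudocount of 1. The size set for a move was 1.5, and the change of sign of NDRG3, from -0.16 to 0.06, counted as staying. Some of the 55 could not differ, as for NDRG4 with its single transcript, so the count is no measure of robustness. No paired analysis was possible because the table holds 1 value per condition, although the samples carry replicate numbers, and leaving out each sample in turn could not be run for the same reason. Depth limits could not be set without counts.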
